A study of Mus musculus with 3 samples.

Results

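STAT5-responsive feedback genes and *PIM* kinase genes were followed in *Cdk6* KM/KM BCR::ABL1+ cell lines. The set holds 9 genes, picked out by symbol, out of the 50686 genes in the count table: the feedback inhibitors *Cish*, *Socs1*, *Socs2* and *Socs3*, the kinases *Pim1*, *Pim2* and *Pim3*, the repressor *Bcl6* and the cytokine *Osm*. All 9 were found by identifier, and 9 of 9 passed the filter of 10 counts in total over the lines. The data are poly(A) RNA-seq counts of 3 stable lines of group K43M. These are pre/pro-B cells from C57BL/6 bone marrow, homozygous for the kinase inactive CDK6 mutant and transduced with a retroviral vector for BCR-ABL p185 with GFP, and they grew out in medium with serum. The sources used here do not say whether a line is 1 clone. *Cdk6* +/+ and *Cdk6* -/- columns were not used here. Every comparison below is therefore between lines of the same genotype, and none is between genotypes. Nothing in the sources used here says that the lines came from separate animals. The p-values below compare single libraries, so they measure only how far these libraries differ beyond counting error.

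BCR::ABL1, the fusion kinase of this leukemia, keeps the transcription factor STAT5 phosphorylated without a cytokine. Active STAT5 enters the nucleus, binds the palindrome TTCNNNGAA and induces survival genes, PIM kinases and a set of inhibitors that act back on the pathway. CIS, SOCS1, SOCS2 and SOCS3 are SH2 domain proteins that bind phosphorylated receptors or JAK kinases and recruit a ubiquitin ligase. PIM kinases are active as soon as they are made, so that their level is set largely by transcription and protein turnover. BCL6 is a zinc finger repressor whose gene STAT5 represses in B-cell precursors, and which binds DNA letters that resemble the STAT palindrome.

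Libraries had from 19633463 to 25773221 counts on genes. Levels are given as CPM, counts in every 1000000 of a library size corrected with TMM. For a gene read 0 times the upper bound is 3 counts, which is between 0.118 and 0.152 CPM. Intervals cover counting error only. *Cdk6* itself was read in all lines, with 450, 334 and 239 CPM in lines 1, 2 and 3 and a mean of 341 ± 105 CPM (SD, n = 3). A count cannot tell the mutant transcript from the normal one. Of the B-lineage precursor markers, 9 of 9 had 1 CPM or more in every line. Of the other cell types, 3 of 5 T cell markers and 4 of 4 stromal markers had no count in any line, and the 6 myeloid markers summed to between 1.75 and 3.97 CPM, nearly all of it *Lyz2*, with *Elane* at 0 in every line. The 4 erythroid markers summed to between 2.49 and 6.44 CPM, led by *Hbb-bt*, with *Hba-a1* at 0. In bulk RNA, fewer cells that express a gene and less RNA per cell cannot be told apart.

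The STAT palindrome was looked up near the start sites of the members, since the expression of these genes is commonly read as STAT5 output. RefSeq promoter windows (GRCm38.p6, the assembly of the counts), which run from 250 bases before to 50 bases after a start site, were given for 7 of 9 members. The letters TTCNNNGAA, the same on both strands, occurred in the windows of 3 of these 7 genes, *Cish*, *Socs3* and *Bcl6*, and in 4 of their 9 windows in all. Of the 32851 windows of all genes, 8.3% held a match and 0.457% held 2 or more. Counted by gene, 2582 of 27025 symbols had a match in any of their windows. The windows of 4 starts are shown in the direction of transcription, with each match in capitals: *Cish*, whose matches lie side by side, *Socs3* with a single match, the downstream start of *Bcl6*, and the first start of *Pim1*, the highest member, which had none.
*Cish*, chr9:107296409-107296708, plus strand: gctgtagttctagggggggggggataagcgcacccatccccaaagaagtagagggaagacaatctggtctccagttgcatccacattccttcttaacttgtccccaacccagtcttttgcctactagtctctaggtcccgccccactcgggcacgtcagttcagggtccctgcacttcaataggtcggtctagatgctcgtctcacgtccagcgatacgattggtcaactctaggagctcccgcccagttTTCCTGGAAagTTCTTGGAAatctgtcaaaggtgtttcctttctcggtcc
*Socs3*, chr11:117969317-117969616, minus strand: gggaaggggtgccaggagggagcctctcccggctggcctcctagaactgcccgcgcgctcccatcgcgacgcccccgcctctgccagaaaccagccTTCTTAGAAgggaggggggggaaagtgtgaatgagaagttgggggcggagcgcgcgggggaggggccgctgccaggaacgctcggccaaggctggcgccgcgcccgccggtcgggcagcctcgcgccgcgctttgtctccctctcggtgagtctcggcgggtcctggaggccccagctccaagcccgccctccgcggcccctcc
*Bcl6*, chr16:23981234-23981533, minus strand: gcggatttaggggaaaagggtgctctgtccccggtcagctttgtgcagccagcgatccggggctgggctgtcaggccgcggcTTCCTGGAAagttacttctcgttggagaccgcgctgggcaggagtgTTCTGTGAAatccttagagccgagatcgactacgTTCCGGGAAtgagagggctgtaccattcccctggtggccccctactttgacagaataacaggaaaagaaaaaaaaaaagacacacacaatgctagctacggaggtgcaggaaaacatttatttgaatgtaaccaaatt
*Pim1*, chr17:29490535-29490834, plus strand: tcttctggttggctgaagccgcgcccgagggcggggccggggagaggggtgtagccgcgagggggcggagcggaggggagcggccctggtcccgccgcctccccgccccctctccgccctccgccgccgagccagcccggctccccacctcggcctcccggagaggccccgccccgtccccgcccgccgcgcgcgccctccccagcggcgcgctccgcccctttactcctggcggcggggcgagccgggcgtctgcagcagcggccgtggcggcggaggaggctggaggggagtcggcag
In *Cish*, TTCCTGGAA begins on the RefSeq start site itself and TTCTTGGAA begins 11 bases after it. The transcript used below for the length of *Cish* starts further upstream, at 107296026, so both matches lie after that start. In *Socs3*, TTCTTAGAA begins 154 bases before the RefSeq start site. It begins 334 bases before the start of the transcript used for the length of *Socs3*. The *Bcl6* window holds 3 matches, which begin 168, 122 and 88 bases before its start site, and the window of the upstream *Bcl6* start holds 1, 118 bases before. *Socs1*, *Pim2* and *Pim3* had no match in their windows, and neither had the other start of *Pim1*. A match is a stretch of letters in the reference and not a measured binding site, and these data hold no binding or chromatin signal.

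The members were expressed over a wide range. Of the 9 genes, 8 had 1 CPM or more in every line, and *Bcl6* was below this level in lines 1 and 3. Levels were taken per kilobase of transcript, using for each gene the one with the longest annotated coding sequence. On this scale *Pim1* was highest with 91.7 ± 14.9 CPM per kilobase, and *Cish* with 40.7 ± 6.11 and *Socs2* with 39.5 ± 10.7 followed (SD, n = 3 each). The values of *Cish* and *Socs2* overlapped between lines, so their order is not settled. *Pim3* had 21.9 ± 3.31 CPM per kilobase, *Socs3* 16.0 ± 3.67, *Pim2* 13.6 ± 1.86, *Osm* 9.61 ± 0.680, *Socs1* 6.49 ± 1.08 and *Bcl6* 0.382 ± 0.204 (SD, n = 3 each). *Socs3* and *Pim2* again overlapped, and the other neighbours in this order did not. The order depends in part on the length used: over the merged exons of all transcripts, *Pim3* with 21.9 CPM per kilobase lay above *Cish* with 18.1 and *Socs2* with 17.6. *Pim1* was highest and *Bcl6* lowest with either length.

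**Figure D1:**
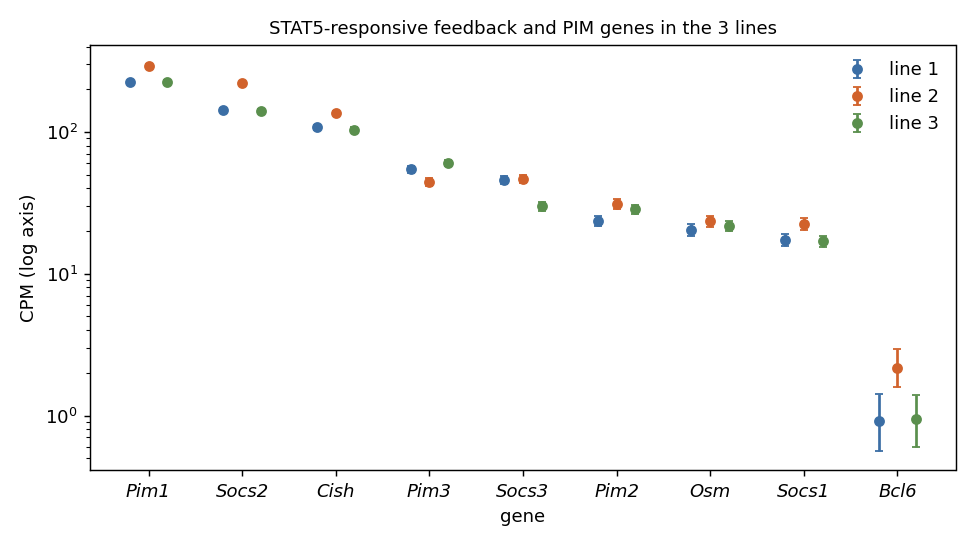
Level of each member in CPM on a log axis, by gene along the horizontal axis and by line in color, with exact 95% Poisson intervals of the counts as bars, which are smaller than the points for the highest genes. Line 2 was highest in all members but *Pim3*, where it was lowest with 44.4 CPM.

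Line 2 stood above the other lines for most members. It had the highest level in 8 of 9 genes, and 8 of 9 were highest there too under each of 2 other scalings and 2 other filters, whereas 31.7% of the 13974 genes tested were highest in line 2. Line 1 was highest in 0 of 9 members and in 31.2% of all genes tested, and line 3 in 1 of 9 and in 37.0%. The lines were then compared in pairs with a two-sided exact conditional binomial test on the counts with Benjamini-Hochberg adjustment at 0.05 over all genes and all 3 pairs. This test asks whether 2 libraries differ beyond counting noise. It compares libraries and not conditions, and each line is 1 library. In 5 of 9 members, *Cish*, *Socs1*, *Socs2*, *Pim1* and *Bcl6*, line 2 was above both other lines past this test while lines 1 and 3 did not differ past it. This count puts *Bcl6*, which STAT5 represses in B-cell precursors, together with genes that STAT5 induces. Over all genes tested, line 2 was above both others in 11.5%, and 6.31% also had no difference past the test between lines 1 and 3. Among genes with a mean of 10 CPM or more, line 2 was above both others in 15.0%. The pattern with only line 2 apart was singled out after the values had been seen. Line 2 was also above both others in 8 of 9 B-lineage precursor markers, which summed to 3660, 4098 and 3819 CPM in lines 1, 2 and 3, and their part in the differences of the STAT5-responsive genes was not tested. Of 9 members, 8 differed in at least 1 pair of lines, but 69.5% of all genes tested did so too, and 83.7% of the genes with a mean of 10 CPM or more. Lines 1 and 2 differed in 7 of 9 members (43.7% of all genes tested), lines 2 and 3 in 7 of 9 (50.9%) and lines 1 and 3 in 3 of 9, *Socs3*, *Pim2* and *Pim3* (51.5%). Line 1 was above both others in 0 of 9 (11.6%).

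*Cish*, which encodes the STAT5-induced inhibitor CIS (ENSMUSG00000032578.7, mm10 chromosome 9, 107296026 to 107302784), had 108, 136 and 104 CPM in lines 1, 2 and 3, from 2351, 2682 and 2639 counts. Line 2 was 1.25 times line 1, with a counting interval from 1.19 to 1.33, and 1.31 times line 3, with an interval from 1.24 to 1.38. Line 3 was 0.957 times line 1, with an interval from 0.904 to 1.01. *Socs2*, an inhibitor best known from growth hormone signalling (ENSMUSG00000020027.18, chromosome 10, 95385362 to 95417180), had 143, 220.0 and 140.3 CPM. It had the widest spread in proportion to its level among the inhibitors, with 168 ± 45.3 CPM (SD, n = 3) and a coefficient of variation of 27.0%. Line 2 was 1.54 times line 1 (interval 1.47 to 1.61) and 1.57 times line 3 (interval 1.5 to 1.64), and line 3 was 0.982 times line 1 (interval 0.935 to 1.03).

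*Socs1*, which blocks JAK kinases directly (ENSMUSG00000038037.4, chromosome 16, 10782240 to 10785536), was low, with 17.3, 22.5 and 16.9 CPM from 375, 444 and 430 counts. Line 2 was 1.30 times line 1 (interval 1.13 to 1.5, exact test, adjusted p = 0.000552) and 1.33 times line 3 (interval 1.16 to 1.52, exact test, adjusted p = 8.01e-05). *Cish*, *Socs1* and *Socs2* thus shared the order of lines, with line 2 apart and the other lines close together. *Socs3*, which acts on JAK kinases bound to cytokine receptors of the gp130 kind (ENSMUSG00000053113.3, chromosome 11, 117966079 to 117970047), had another pattern, with 46.0, 46.5 and 30.0 CPM. Here lines 1 and 2 did not differ past the test (ratio 1.01, interval 0.923 to 1.11), and line 3 was 0.652 times line 1 (interval 0.593 to 0.718) and 0.646 times line 2 (interval 0.586 to 0.712). It was the only member with line 3 below both other lines, as were 13.6% of all genes tested.

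*Pim1*, a serine/threonine kinase gene first known as a site of retroviral insertion in lymphoma (ENSMUSG00000024014.7, chromosome 17, 29490753 to 29496112), had 224, 294 and 225 CPM from 4855, 5802 and 5725 counts. Line 3 was 1.00 times line 1 (interval 0.967 to 1.04), and line 2 was 1.31 times either of them (intervals 1.26 to 1.37 over line 1 and 1.26 to 1.36 over line 3). *Pim2*, the kinase gene on chromosome X (ENSMUSG00000031155.15, 7878262 to 7883432), had 23.6, 31.1 and 28.5 CPM. Lines 2 and 3 were 1.32 times (interval 1.17 to 1.48) and 1.21 times line 1 (interval 1.08 to 1.36), and did not differ past the test from each other (exact test, adjusted p = 0.213). Line 1 was below both others, as in 12.2% of all genes tested. *Pim3* (ENSMUSG00000035828.10, chromosome 15, 88862186 to 88865726) went the other way, with 54.4, 44.4 and 60.3 CPM. Line 2 was below both other lines, at 0.817 times line 1 (interval 0.747 to 0.892), and line 3 was above both, at 1.36 times line 2 (interval 1.25 to 1.48) and 1.11 times line 1 (interval 1.03 to 1.20), as in 17.6% of all genes tested. It was the only member with line 2 below both others, as were 10.1% of all genes tested. The 3 *PIM* genes therefore did not share an order of lines, and the level of *Pim1*, per kilobase, exceeded that of *Pim2* and *Pim3* in every line.

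*Bcl6* (ENSMUSG00000022508.5, chromosome 16, 23965052 to 23988852) was close to the limit of what these libraries resolve, with 20, 43 and 24 counts in lines 1, 2 and 3. This is 0.921 CPM (exact Poisson interval 0.563 to 1.42), 2.18 CPM (1.58 to 2.93) and 0.942 CPM (0.604 to 1.40). Line 2 was 2.36 times line 1, but with an interval from 1.36 to 4.24 (exact test, adjusted p = 0.00376), and 2.31 times line 3 (interval 1.37 to 3.98, exact test, adjusted p = 0.00225). *Osm*, a secreted cytokine induced by STAT5 (ENSMUSG00000058755.3, chromosome 11, 4236420 to 4241026), was the steadiest member, with 20.3, 23.4 and 21.7 CPM and 21.8 ± 1.54 CPM (SD, n = 3). No pair of lines differed past the test, and the widest ratio, line 2 over line 1, was 1.15 with an interval from 1.01 to 1.32 (exact test, adjusted p = 0.0702).

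The differences between lines were small. On the scale of log2(CPM + 1), the range between the highest and the lowest line had a median of 0.39 over the 9 members, against 0.32 over all genes tested and 0.28 over genes with a mean of 10 CPM or more. None of the 9 members reached a range of 1 on this scale, which is 2-fold in CPM + 1, and 10.9% of all genes tested did. *Bcl6*, *Socs2* and *Socs3* had the widest ranges of the members with 0.73, 0.64 and 0.61, and these 3 of 9 passed 1.5-fold, as did 24.5% of all genes tested. For *Bcl6* the pseudocount of 1 CPM compresses the range, which was 1.16 on the scale of log2(CPM + 0.1). In CPM without a pseudocount, its line 2 was 2.36 times line 1. Several of these ranges came from 1 line. Without line 2 the range was 0.08 for *Cish*, 0.05 for *Socs1*, 0.04 for *Socs2*, 0.01 for *Pim1* and 0.01 for *Bcl6*, and without line 3 it was 0.01 for *Socs3*. These values restate the pair tests, since the 2 lines left in each case did not differ past the test. Since no member reached a range of 1 on the scale of log2(CPM + 1), no gene was named for the likeness of its pattern.

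**Figure D2:**
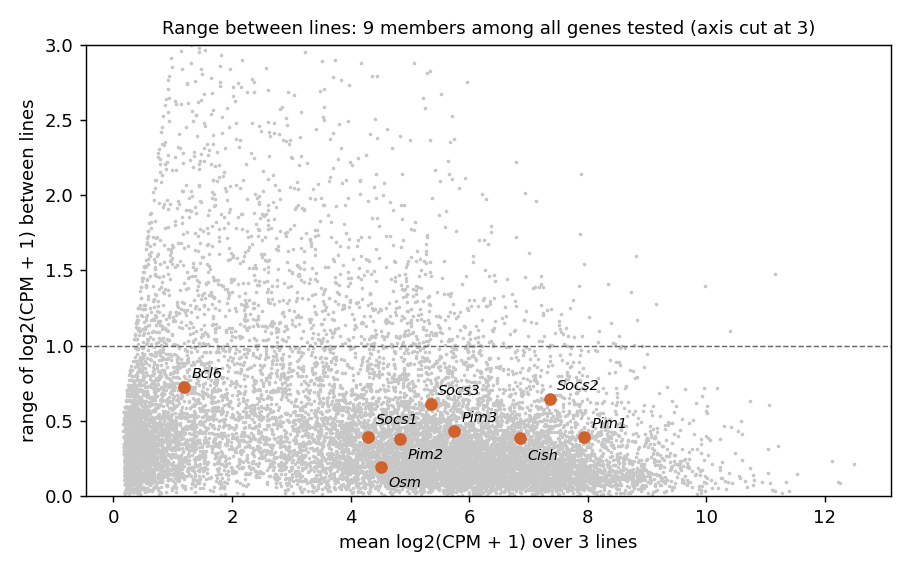
Range of log2(CPM + 1) between the highest and the lowest line against the mean log2(CPM + 1) over the 3 lines, for all 13974 genes tested in grey and the 9 members in color. The dashed line marks a range of 1, which is 2-fold in CPM + 1, and all members lie below it. Above the cut of the vertical axis at 3 lie 139 genes.

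To see whether a member moved with its stretch of chromosome, it was set beside the genes that start within 5 Mb of it. Between 28 and 165 neighbours with a mean log2(CPM + 1) of 2 or more were found for a member. The median of their deviations, each taken from a gene's mean over lines, lay between -0.05 and 0.05 on the log2 scale for every member and line. In line 2, the deviation was 0.42 for *Socs2* against -0.03 for its 28 neighbours, 0.26 for *Pim1* against 0.04 for 165, 0.25 for *Socs1* against 0.03 for 34, and 0.24 for *Cish* against -0.01 for 108. *Pim2* on chromosome X deviated by -0.22 in line 1, where its 32 neighbours had a median of -0.04. With the neighbours subtracted, the range rose from 0.64 to 0.72 for *Socs2* and stayed at 0.39 for *Cish*. It also rose for *Pim3*, *Bcl6* and *Osm*. The range fell from 0.38 to 0.31 for *Pim2* and from 0.39 to 0.35 for *Pim1*. It fell from 0.39 to 0.36 for *Socs1* and from 0.61 to 0.58 for *Socs3*. The ranges of the members were thus not seen in the median of the genes around them. Such a median cannot show a smaller block of genes, and whether 1 moved with a member was not tested. The share of neighbours with line 2 above both other lines ran from 7.14% for *Socs2* to 20.6% for *Pim1* (34 of 165). It was 11.5% over all genes tested.

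**Figure D3:**
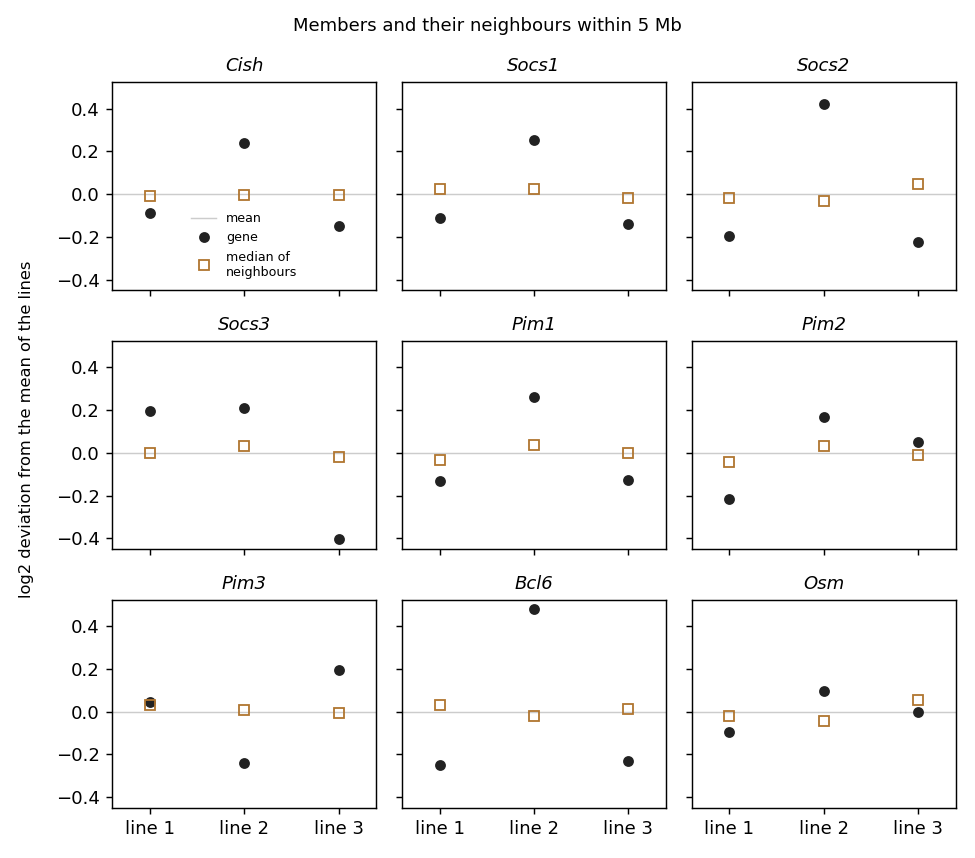
Log2 deviation of each member from the mean of the lines (filled circles) and the median deviation of the genes that start within 5 Mb of it (open squares), by line. Line 2 lies above 0 in all members but *Pim3*, and the medians of the neighbours stay between -0.05 and 0.05.

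Some annotated genes could share reads with a member. Transcripts of the annotation that overlap exons of *Cish* and *Pim1* on the other strand are *Gm17040* and *Gm17041* for *Cish* and *Gm26885* for *Pim1*, and the strand setting of the counting is not given in the sources used here. *Gm17040* had from 48 to 60 counts in a line, and *Gm17041* and *Gm26885* had 8 counts or fewer. Of the 50-base stretches of all annotated transcripts of a member, 9.35% of those of *Cish*, 8.78% of *Pim1*, 4.58% of *Socs2* and 1.57% of *Pim2* also occur in transcripts of other genes, and 0% of those of the other 5 members. The counts of the genes with such shared stretches were not summed, so how many reads they could share was not tested.

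Genes of the surrounding pathway were described from 8 lists with 67 genes in all, of which 63 passed the filter on low counts. The highest gene of a list is the one with the highest mean CPM, not corrected for length. Of the 63 genes, 59 differed between lines in at least 1 pair, or 93.7%. This was 69.5% of all genes tested and 83.7% of the genes with a mean of 10 CPM or more. In the lists, 5 genes reached 2-fold in CPM + 1, namely *Il2ra*, *Il2rg*, *Stat4*, *Il3ra* and *Ccnd1*. Line 2 was above both other lines in 14 of the 63 (22.2%) and below both in 10, against 11.5% and 10.1% of all genes tested. Among genes with a mean of 10 CPM or more, it was above both in 15.0%.

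Upstream of the members, 11 of 11 JAK and STAT genes had 1 CPM or more in every line, and line 2 was above both others in 4 of them and below both in 1. *Stat5a* and *Stat5b*, named here for their role, were among the 4, with 58.4, 66.8 and 54.5 CPM and with 97.8, 117 and 108 CPM in lines 1, 2 and 3. *Jak1*, the highest gene of this list, was lowest in line 2 with 371, 338 and 395 CPM, and *Stat4*, with the largest range, had 18.4, 27.3 and 39.2 CPM. Of the 9 genes listed as BCR::ABL1 adaptors, which include its fusion partners *Abl1* and *Bcr*, line 2 was above both others in 2. One of these 2 was *Abl1*, the highest, with 569, 624 and 565 CPM. Whether reads of the BCR::ABL1 transgene were counted under it was not tested. *Ptpn11*, which encodes the phosphatase SHP2 and had the largest range, was highest in line 1 with 315, 239 and 219 CPM.

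Among the receptors, 8 of 11 genes passed the filter and line 2 was above both others in 3 of them. *Csf2rb*, the shared beta chain of interleukin receptors and the highest of the list, had 305, 336 and 299 CPM, and its close copy *Csf2rb2* had 78.7, 91.5 and 73.8 CPM, and reads of the pair may be split in an uncertain way. *Il7r*, the interleukin-7 receptor chain of B-cell precursors and the last of the 3, had 82.8, 136 and 89.8 CPM. *Il2rg* had the largest range and was highest in line 3 with 35.2, 33.6 and 86.8 CPM. *Osmr*, a receptor chain for oncostatin M, had 0 counts in every line. *Lifr* and *Il6st*, on the same list, were read in all lines. *Lifr* had 36.5, 20.6 and 33.4 CPM and was the 1 receptor with line 2 below both others. *Il6st* had 3.32, 1.17 and 1.26 CPM.

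Other inhibitors of the pathway were described in the same way. Of the other SOCS genes, *Socs4*, *Socs5*, *Socs6* and *Socs7*, 4 of 4 differed between lines and line 2 was above both others in 0 of 4. *Socs4*, the highest, had 81.9, 83.4 and 69.5 CPM, and *Socs5*, with the largest range, had 2.63, 2.33 and 1.22 CPM. Of 11 phosphatase, PIAS and CBL family genes and adaptors that limit the pathway, line 2 was above both others in 0 and below both in 6. *Ptprc*, the phosphatase CD45 and the highest of them, had 393, 363 and 392 CPM. *Ptpn6*, which encodes the phosphatase SHP1 and had the largest range, had 416, 273 and 393 CPM. The median deviation of line 2 was -0.08 on the log2 scale in this list, 0.24 over the members and close to 0 over all genes tested.

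Downstream, 10 other genes known to respond to STAT5 were mixed, with line 2 above both others in 2 and below both in 2. *Il2ra*, the interleukin-2 receptor alpha chain, had the largest range of all list genes, with 1.43, 12.4 and 4.16 CPM, and *Ccnd2* was the other gene above, with 723, 839 and 714 CPM. *Ccnd3*, the highest of the list, was highest in line 3 with 1286, 1456 and 1566 CPM, and *Myc* and *Bcl2l1* were lowest in that line. Among 6 PIM substrate genes, *Eif4ebp1* was highest with 78.9, 76.0 and 83.5 CPM, and *Cdkn1b*, the inhibitor p27, had the largest range and was the 1 gene with line 2 above both others, with 20.2, 35.6 and 27.8 CPM. Of 7 genes that BCL6 represses, 6 passed the filter and line 2 was above both others in 2, one of them *Cdkn2a*, the highest, with 235, 279 and 235 CPM. *Prdm1*, with the largest range there, had 1.15, 1.57 and 2.59 CPM.

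The 8 B-lineage precursor markers with line 2 above both other lines included *Rag1*, a recombinase gene, with 22.4, 91.4 and 32.4 CPM and *Pax5*, a B-lineage transcription factor gene, with 789, 849 and 805 CPM. *Il7r* is one of these markers as well as one of the receptors. Of the markers of other cell types, 1 myeloid and 2 erythroid genes passed the filter, and line 2 was above both other lines in 0 of them.

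**Figure D4:**
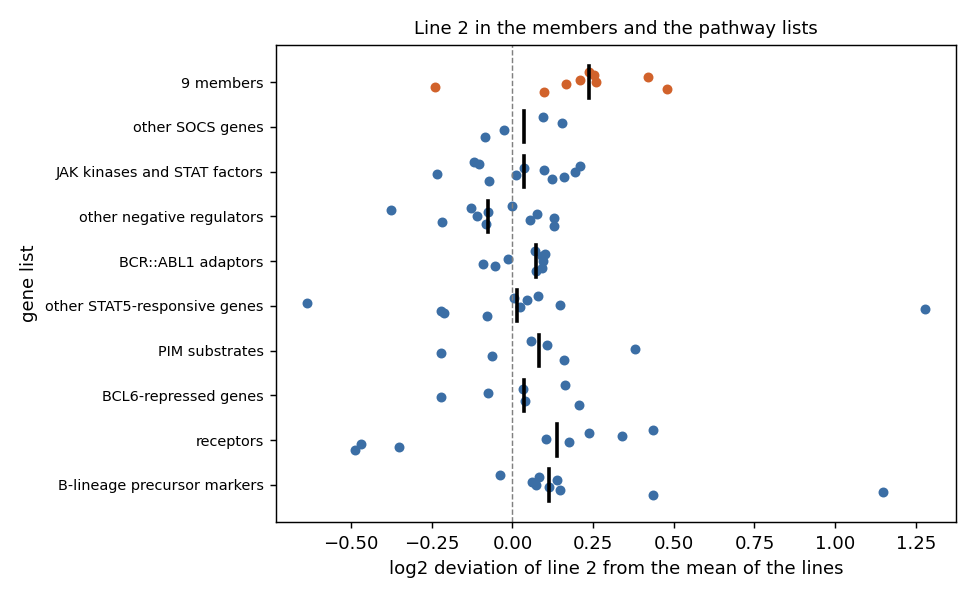
Log2 deviation of line 2 from the mean of the lines for each gene that passed the filter, by list, with the median of a list as a black bar and the median of all genes tested as a dashed line. The members have a median of 0.24, the receptors 0.14, the B-lineage markers 0.11 and the other negative regulators -0.08.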

How the data were processed

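Poly(A) RNA of 3 *Cdk6* KM/KM BCR::ABL1+ lines was sequenced as single-end reads of 50 bases. The authors merged lanes, trimmed the reads with Trimmomatic, aligned to mm10 (GRCm38) with STAR and used featureCounts with the exons of Gencode M13. The values the authors deposited are whole-number counts for each gene, not normalized. The strand setting and the treatment of reads with several matches are not given in the sources used here. The methods name the TruSeq kit and the sample record the SENSE kit. The table holds 6 other columns of values, which were not used here, and 0 rows that name no gene. Of 50686 genes, 50462 were matched by identifier to Gencode M21, which gave symbols, coordinates and lengths.

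Counts were scaled with TMM (edgeR 4.0.16 in R 4.3.3). Genes with at least 10 counts in total were kept. Pairs of lines were compared with the two-sided exact conditional binomial test (scipy 1.17.1, Python 3.11.15). It was run on simulated counts with counting noise only and 2-fold changes in line 2. That check does not cover smaller differences or further variation between libraries. No 2 libraries agreed within sampling noise, as each pair differed at 6101 genes or more. Log2 values carry a pseudocount of 1 CPM, and intervals cover 95%. Also tried were the size factors of DESeq2 1.42.0, scaling by totals only, other filters, a chi-square test, other folds, a pseudocount of 0.1 CPM and leaving out each line.

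The members and lists were chosen with earlier results of these data known. Named from each list were its highest gene and, from a mean of 1 CPM, the gene with the largest range. Other list genes were named after their values were seen. The values of 1 B-lineage marker are not reported here singly.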

Additional observations from a re-analysis of the deposited data

How the results depend on the processing

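No paired analysis was possible because no other group was compared with these lines. Of the 47 summary values under other settings, 41 stayed within 1.5 times the value reported. The 8 members that differed between lines numbered from 3 to 7 with 1 line left out, with 3 without line 2, when only lines 1 and 3 are compared, and 3 when 1.5-fold was also asked. The members past 2-fold in CPM + 1 numbered 0. They numbered 3 at a threshold of 1.5-fold and 1, *Bcl6*, with a pseudocount of 0.1 CPM. The pathway genes that differed numbered from 38 to 48 with 1 line left out, against 59. Those also past 2-fold in CPM + 1 numbered from 1 to 5, against 5. Both counts were lowest without line 3. Fewer lines give fewer pairs, so part of this lies in the construction. The members with line 2 above the other lines, a count added after the values were seen, numbered 5 under every scaling and filter tried, and 6 when line 2 was set against only 1 other line. Of 135 levels and ranges of single members, 12 ranges moved by over 1.5 times, 11 of them down with a line left out and that of *Bcl6* up with the smaller pseudocount. Depth limits *Bcl6*, with 43 counts or fewer in a line.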
